A study of Rattus norvegicus with 4 samples.

Results

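The 10 cytosolic heat shock genes Hspb1, Hspa8, Hsph1, Hsp90aa1, Hsp90ab1, Dnajb1, Dnaja1, Cryab, Bag3 and Hsf1 were taken by symbol from the 13261 genes with usable values in glomerular RNA of Adriamycin-treated rats, and all 10 were found. Adriamycin (ADR, doxorubicin) is an anthracycline that injures podocytes and produces nephrotic syndrome in rats. The 4 samples form 1 group: male Wistar rats of about 150 to 175 g, given ADR intravenously, whose glomeruli were isolated by sieving and sequenced as polyadenylated RNA. The labels name harvest on day 11 or day 21 without assigning a day to these animals, and give no age, ADR dose or genotype. Untreated, puromycin aminonucleoside and PPARγ agonist groups were not analysed here, so the values are levels in ADR glomeruli and differences between animals, and they carry no direction of response to ADR. The samples are listed as separate, but no label says that each is a separate animal; if they are not, the spread between them is technical.

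Cytosolic chaperones keep proteins folded and rescue those that have begun to unfold. HSP70 proteins bind unfolded stretches with the help of J-domain partners and nucleotide exchange factors, HSP90 proteins finish the folding of kinases and steroid receptors, and small heat shock proteins hold unfolding proteins in a soluble state. Some of these genes are expressed at a high basal level in most cells, whereas others are raised by the transcription factor HSF1 when proteins are damaged by heat, toxins or tissue handling. In podocytes, the small heat shock protein HSPB1 is known for its role in actin filament dynamics, which foot processes depend on.

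HSF1 binds arrays of the unit GAA in alternating orientation, and the promoters of the members were searched for such arrays. RefSeq sequence of the 250 bases before the transcription start (build GRCr8, whereas the submitters' processing notes name Rnor_6.0 for the expression values) was found for 7 of the 10 members, with none in the table for Hsp90aa1, Cryab and Hsf1. The pair motifs GAANNTTC and TTCNNGAA each read the same on both strands. The triple motif joins them with 1 unit in common, as GAANNTTC followed by NNGAA or, on the other strand, TTCNNGAA followed by NNTTC, and so contains both. Either pair motif was present in 6 of the 7 promoters, against 13.5% of 33469 rat promoters of this length. The triple motif was present in 2 of the 7, Hspa8 and Hsph1, against 0.663% of all promoters. These 4 promoters are shown because they span the range found, from Hspa8 with 2 triple motifs, through Hsph1 with 1 and Hspb1 with 2 pair motifs, to Hsp90ab1 with 0 of either. Each is written 5′ to 3′ on the gene's strand, with the matched motifs in capitals, and ends at the base before the start. The intervals on GRCr8 are chr8:50080264-50080513, plus strand, for Hspa8; chr12:10427118-10427367, plus strand, for Hsph1; chr12:26432302-26432551, minus strand, for Hspb1; and chr9:22930173-22930422, plus strand, for Hsp90ab1.
Hspa8: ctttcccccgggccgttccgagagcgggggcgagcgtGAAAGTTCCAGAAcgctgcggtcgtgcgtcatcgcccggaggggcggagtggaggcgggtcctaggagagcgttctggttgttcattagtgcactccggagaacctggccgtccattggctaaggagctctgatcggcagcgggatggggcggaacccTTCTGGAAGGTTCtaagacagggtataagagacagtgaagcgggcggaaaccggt
Hsph1: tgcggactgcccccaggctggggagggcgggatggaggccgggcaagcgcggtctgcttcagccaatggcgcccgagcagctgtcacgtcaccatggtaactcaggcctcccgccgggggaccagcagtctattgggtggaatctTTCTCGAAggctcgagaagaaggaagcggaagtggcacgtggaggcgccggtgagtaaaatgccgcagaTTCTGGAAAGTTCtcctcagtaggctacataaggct
Hspb1: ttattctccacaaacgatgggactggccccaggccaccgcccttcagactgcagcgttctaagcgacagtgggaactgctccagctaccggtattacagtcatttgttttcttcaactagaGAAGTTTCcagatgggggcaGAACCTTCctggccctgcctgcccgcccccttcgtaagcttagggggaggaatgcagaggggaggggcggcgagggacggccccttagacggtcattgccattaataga
Hsp90ab1: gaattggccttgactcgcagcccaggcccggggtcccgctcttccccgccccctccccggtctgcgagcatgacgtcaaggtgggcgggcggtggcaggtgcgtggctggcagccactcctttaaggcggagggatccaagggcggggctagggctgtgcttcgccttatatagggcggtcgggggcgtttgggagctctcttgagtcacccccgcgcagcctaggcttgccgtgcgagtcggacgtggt

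The triple motifs of Hspa8 began 213 and 55 bases before the start (GAAAGTTCCAGAA and TTCTGGAAGGTTC), and that of Hsph1 began 36 bases before it (TTCTGGAAAGTTC). Dnajb1, Dnaja1 and Bag3 each held 1 pair motif, at 11, 181 and 132 bases before the start (GAAGGTTC, GAAGATTC and GAAGTTTC). A match describes these letters in this window and is not evidence of binding.

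Libraries held 13566962 to 16207027 reads in the genes used, and each member had between 535 and 25218 reads in every sample, so that no filter on low values removed any of them. Values are CPM (reads scaled to the same total in each sample) or log2 CPM. CPM is not corrected for transcript length, transcript lengths were not used here, and members are therefore compared between animals and not ranked against each other. Of the markers of the labelled tissue, 12 of 12 for podocytes and 8 of 9 for glomerular endothelium were measured. The other, Pecam1, was not analysed here. Their summed levels were 7208 to 12432 CPM for podocytes and 6193 to 8222 CPM for endothelium. Every gene used had at least 2 reads in each sample, so a lack of values at 0 says nothing about these markers. The 9 proximal tubule markers were also present, with a summed level of 2888 to 5814 CPM, so tubular RNA was present in every sample. Replicate 2 had the highest share of reads in the 13 protein-coding mitochondrial genes, 12.5% against 7.46% to 9.34% in the others.

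The members as a group were highest in 1 animal, replicate 2. Together they took 0.314%, 0.371%, 0.322% and 0.301% of reads in replicates 1 to 4. Replicate 2 had the highest value for 8 of the 10 members, whereas it was the highest for 21.3% of all genes. The exceptions were Cryab, highest in replicate 4, and Hsf1, highest in replicate 3, the highest animal for 21.4% and 29.6% of all genes, and replicate 1, the highest for 27.7% of all genes, led 0 members. The count depended on the scaling, which shifts every gene of an animal alike. It was 9 of 10 with trimmed mean factors (26.6% of all genes), with median-of-ratios factors (26.1%) and with mitochondrial genes left out of the total (30.8%). The added gene was Hsf1, whose gap between replicates 3 and 2, 0.03 log2, was smaller than the 0.05 log2 by which each of these scalings moved replicate 2 against replicate 3. A total of 6 members exceeded the mean of the other animals by at least 0.2 log2 in replicate 2, against 18.4% of all genes: Hspb1, Hspa8, Hsph1, Hsp90aa1, Dnaja1 and Bag3. This count was 7 with trimmed mean factors (21.8% of all genes) and with median-of-ratios factors (21.3%), Hsp90ab1 being added, and 8 with mitochondrial genes left out (26.4%), with Dnajb1 as well. The median excess over the 10 members was 0.30 log2, beside -0.02 over all genes. A group of 4 animals contains no contrast that tests 1 of them, so these counts describe replicate 2 and carry no p-value. Replicate 2 was also the animal with the highest mitochondrial share and the lowest summed podocyte markers, 7208 CPM against 9406 to 12432 CPM. Of 6 mesangial markers, 4 were lowest and 2 highest there (31.5% and 21.3% of all genes). The summed leukocyte markers were highest there, at 1320 CPM against 1033 to 1294 CPM. The part of any of these in the heat shock values was not tested.

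**Figure D1:**
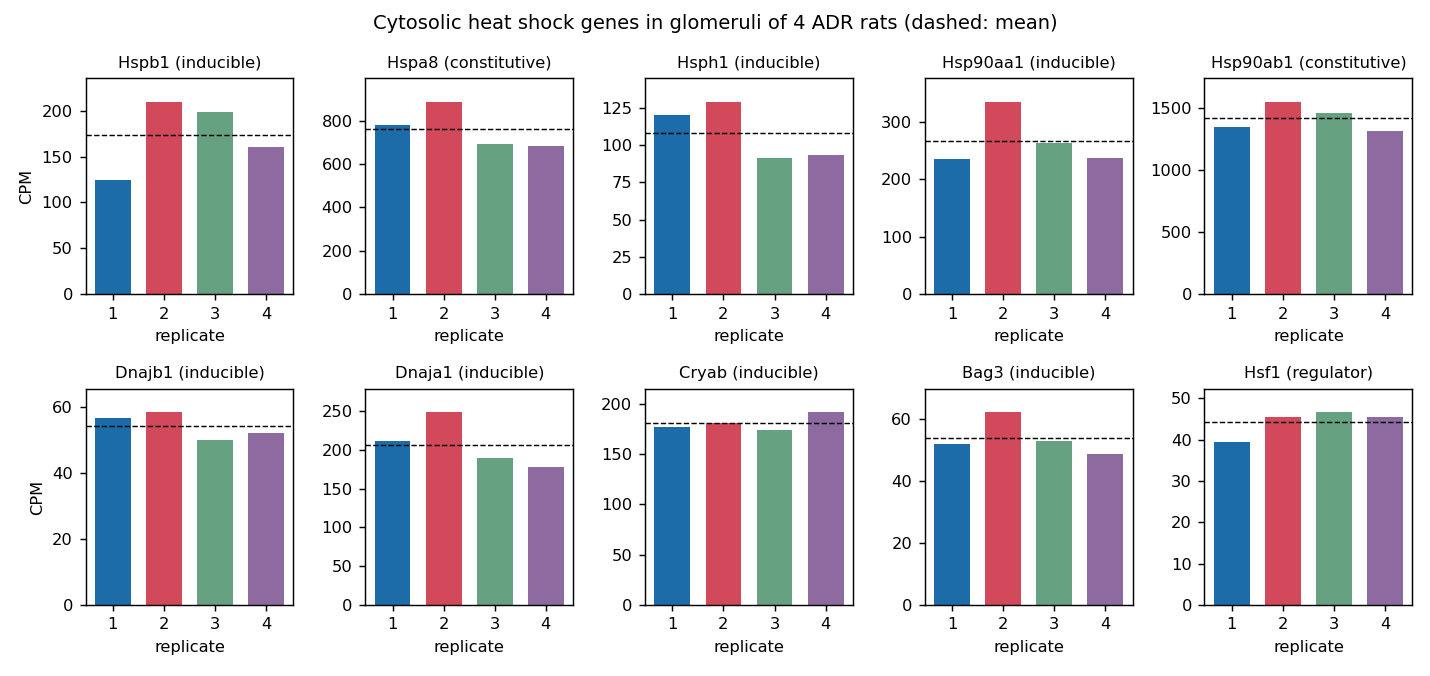
Level of each of the 10 heat shock genes in CPM (vertical axes, each starting at 0) in replicates 1 to 4 (bars), with the mean of the 4 animals as a dashed line. Replicate 2 holds the tallest bar in 8 of the 10 panels, Cryab is nearly level at 174 to 192 CPM, and Hspb1 runs from 124 to 210 CPM.

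Within the HSP70 machine, replicates 1 and 2 were the higher animals for 4 of 5 genes. Hspa8 (ENSRNOG00000034066) encodes HSC70, the constitutive HSP70 of the cytosol, which folds new proteins and strips clathrin from vesicles. It had 778, 888, 690 and 684 CPM in replicates 1 to 4, a mean of 9.56 ± 0.18 log2 CPM (SD, n = 4). Replicates 1 and 2 were thus above replicates 3 and 4, with a 1.30-fold span from the lowest animal to the highest. Dnaja1 (ENSRNOG00000007029), a J-domain partner that hands substrates to HSP70, had 211, 249, 189 and 178 CPM (7.68 ± 0.21 log2 CPM, SD, n = 4). Its order of animals was that of Hspa8, and the log2 ratio of Dnaja1 to Hspa8 had an SD of 0.04 over the 4 animals, the smallest of all 45 pairs of members. Dnajb1 (ENSRNOG00000021824), the J-domain protein known as HSP40 and a classical heat-induced gene, had 56.8, 58.6, 50.0 and 52.2 CPM (5.76 ± 0.11 log2 CPM, SD, n = 4). It shared the split between replicates 1 and 2 and replicates 3 and 4, within a 1.17-fold span.

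Hsph1 (ENSRNOG00000000902), an HSP110 protein that exchanges nucleotide on HSP70 and helps dissolve aggregates, had 120, 129, 91.0 and 93.2 CPM (6.74 ± 0.26 log2 CPM, SD, n = 4). The same 2 animals were high, and the span was 1.42-fold. Bag3 (ENSRNOG00000020298), a co-chaperone that sends HSP70 clients to autophagy and is strongly stress-induced in many cells, had 51.96, 62.3, 52.97 and 48.9 CPM (5.75 ± 0.15 log2 CPM, SD, n = 4). Here replicate 2 stood 0.23 log2 above the next animal, and the other 3 lay close together. Among these 5 genes the SD of the pairwise log2 ratio ran from 0.04 to 0.18 over 10 pairs, with a median of 0.10. The other 35 pairs of members had a median of 0.21, and 14 of them had an SD no larger than the widest of these 10. The 5 genes were grouped by role, and the difference between the medians was not tested. The second steadiest of all 45 pairs was Bag3 with Hsp90ab1 (0.07), which was the closest partner of Bag3, and Bag3 with Hsp90aa1 had an SD of 0.11. The pair of Hsph1 and Bag3, at 0.18, was slightly above the median of all 45 pairs. Hspa8 and Hsph1 are the members with triple motifs in the promoters shown above, and Dnaja1, whose ratio to Hspa8 was steadiest, held a single pair motif there.

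Both HSP90 genes were highest in replicate 2. Hsp90aa1 (ENSRNOG00000059714), the inducible HSP90α gene, had 234, 335, 263 and 236 CPM (8.05 ± 0.24 log2 CPM, SD, n = 4). Replicate 2 stood apart by 0.35 log2 from the next animal, and replicates 1 and 4 were nearly equal. Hsp90ab1 (ENSRNOG00000019834), the constitutive HSP90β gene, had 1349, 1556, 1466 and 1322 CPM (10.47 ± 0.11 log2 CPM, SD, n = 4). The order of animals was similar, but the span was 1.18-fold for Hsp90ab1 and 1.43-fold for Hsp90aa1, a difference in spread that was not tested. The log2 ratio of Hsp90aa1 to Hsp90ab1 was -2.53, -2.22, -2.48 and -2.48 in replicates 1 to 4, highest in replicate 2. Hspa8 and the HSP90 genes are known to have processed copies elsewhere in mammalian genomes, and how the authors' counting divided reads between copies is not given in the sources used here.

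Over all 4 animals, the 2 small heat shock genes had the widest and the narrowest spread among the members. Hspb1 (ENSRNOG00000023546), encoding the small heat shock protein also called HSP27, had 124, 210, 199 and 161 CPM (7.41 ± 0.34 log2 CPM, SD, n = 4). The span was 1.69-fold from replicate 1 to replicate 2, and replicates 2 and 3 were both high. Its place as the widest rested on replicate 1: without it the SD was 0.20 for Hspb1, below 0.28 for Hsph1, 0.26 for Hsp90aa1 and Dnaja1 and 0.21 for Hspa8. Cryab (ENSRNOG00000010524), encoding αB-crystallin, had 177, 181, 174 and 192 CPM (7.50 ± 0.06 log2 CPM, SD, n = 4). Its SD was above that of 5.44% of all genes. Cryab was the narrowest without replicate 3 or 4, whereas Hsf1 was narrower without replicate 1 (0.02 against 0.07) and Bag3 without replicate 2 (0.06 against 0.07). The log2 ratio of Hspb1 to Cryab therefore ran from -0.51 in replicate 1 to 0.22 in replicate 2.

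Hspb1 and Hsph1 deviated in opposite directions in replicates 1 and 3. In replicate 1 the deviation from the gene's own mean was -0.45 log2 for Hspb1 and 0.17 for Hsph1, and in replicate 3 it was 0.22 for Hspb1 and -0.24 for Hsph1. Pairs that included Hspb1 had a median SD of the log2 ratio of 0.35 (9 pairs), beside 0.15 for the 36 pairs without it. The order of Hspb1 over animals, replicate 2 above 3, 4 and 1, was the exact reverse of the order of the summed podocyte markers, which had 12432, 7208, 9406 and 11256 CPM in replicates 1 to 4. The part of podocyte content in this order was not tested. The summed glomerular endothelial markers had 6193, 7202, 8222 and 6911 CPM and were lowest in replicate 1 as well. In bulk RNA, fewer cells of a type and less RNA per cell cannot be told apart.

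**Figure D2:**
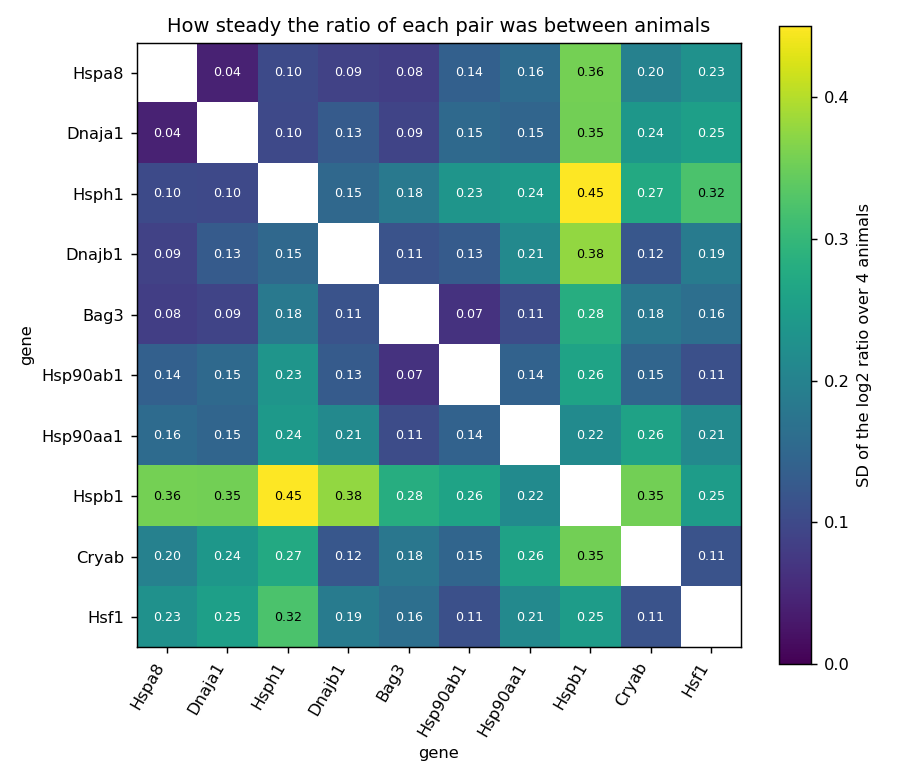
SD over the 4 animals of the log2 ratio between each pair of the 10 genes (rows and columns, colour scale and printed values in log2 units), where a small value means a steady ratio. Hspa8, Dnaja1, Hsph1, Dnajb1 and Bag3 lie at 0.04 to 0.18 among themselves, Bag3 is closest to Hsp90ab1 (0.07), and the row of Hspb1 runs from 0.22 to 0.45.

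Hsf1 (ENSRNOG00000021732), the gene of the transcription factor that drives the inducible members, had 39.4, 45.6, 46.6 and 45.4 CPM (5.47 ± 0.11 log2 CPM, SD, n = 4). Replicate 1 was low and the other 3 lay between 45.4 and 46.6 CPM. HSF1 is known to be controlled mainly as a protein, so its mRNA is not a measure of its activity. Replicate 1 was also the lowest animal for 35.0% of all genes.

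Inducible and constitutive genes were then compared within each animal. The mean of the 7 inducible members (Hspb1, Hsph1, Hsp90aa1, Dnajb1, Dnaja1, Cryab and Bag3) was 6.92, 7.20, 6.94 and 6.88 log2 CPM in replicates 1 to 4. The mean of the 2 constitutive members, Hspa8 and Hsp90ab1, was 10.00, 10.20, 9.97 and 9.89 log2 CPM. Both classes were highest in replicate 2 and lowest in replicate 4, and their difference deviated from its mean by -0.046, 0.034, -0.0048 and 0.016 log2 in replicates 1 to 4, a range of 0.08. In replicate 2 the inducible class thus exceeded its mean by 0.22 and the constitutive class by 0.18. The range of the difference depended on how the class was summarised: it was 0.51 with class medians, where a single gene of intermediate level sets the value, 0.12 without Cryab, 0.12 without both small heat shock genes, and 0.04 without replicate 1. The order of animals turned as well. The highest difference was in replicate 2 in the first summary and in replicate 3 with class medians, and the lowest was in replicate 1 in the first summary and in replicate 3 without both small heat shock genes or without replicate 1. The classes were proposed with results of these data known, and the difference is a description. Hspa8, in the constitutive class, held 2 triple motifs in its promoter, and its steadiest ratio was with the inducible Dnaja1 (SD 0.04). The classes are thus not cleanly separate, and a small difference between them cannot tell whether an animal carried a stress pattern.

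Whether any member varied more between animals than genes of like abundance was tested over all 13261 genes with limma. The members passing at an adjusted p under 0.05 numbered 0 of 10, against 0.0% of all genes, and at an unadjusted p under 0.05 they numbered 0, against 5.47%. The smallest limma adjusted p over all genes was 0.912, so nothing particular to the members is read from the 0 of 10. With all 4 animals Hspb1 came closest, with an SD of 0.34 on the log2(CPM + 1) scale against 0.15 on the trend (limma, unadjusted p = 0.0742, adjusted p = 0.927), followed by Hsph1, with 0.25 against 0.14 (limma, adjusted p = 0.96). A second test, the Pearson statistic on recovered reads at a fixed dispersion trend, also called 0 of 10 members, against 7.63% of all genes; its adjusted p was 0.108 for Hspb1 and 0.201 for Hsph1. Without replicate 1 the order of these genes turned in both tests: limma gave an adjusted p of 0.994 for Hspb1 and 0.977 for Hsph1, and the fixed-trend test gave 0.785 and 0.119. At its unadjusted p under 0.05 it passed 2 members, these same genes, against 15.9% of all genes. The median SD of the members was 0.16 log2, beside 0.18 over all genes.

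Set against counting error alone, each of the 10 members varied beyond Poisson sampling (chi-square index of dispersion of the reads, adjusted over all genes by Benjamini-Hochberg, threshold 0.05) and so did 69.5% of all genes, so nothing particular to the members is read from it. The statistic, on 3 degrees of freedom, was lowest for Hsf1, at 10.1 (adjusted p = 0.0266), Dnajb1, at 13.6 (adjusted p = 0.0062), and Cryab, at 14.4 (adjusted p = 0.00442), and highest for Hspa8, at 569. These calls rested on single animals for 4 members. Hsf1 was no longer called without replicate 1 (adjusted p = 0.887), Bag3 without replicate 2 (0.34), Cryab without replicate 4 (0.452), and Dnajb1 without replicate 2 (0.0609) or replicate 3 (0.0742).

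**Figure D3:**
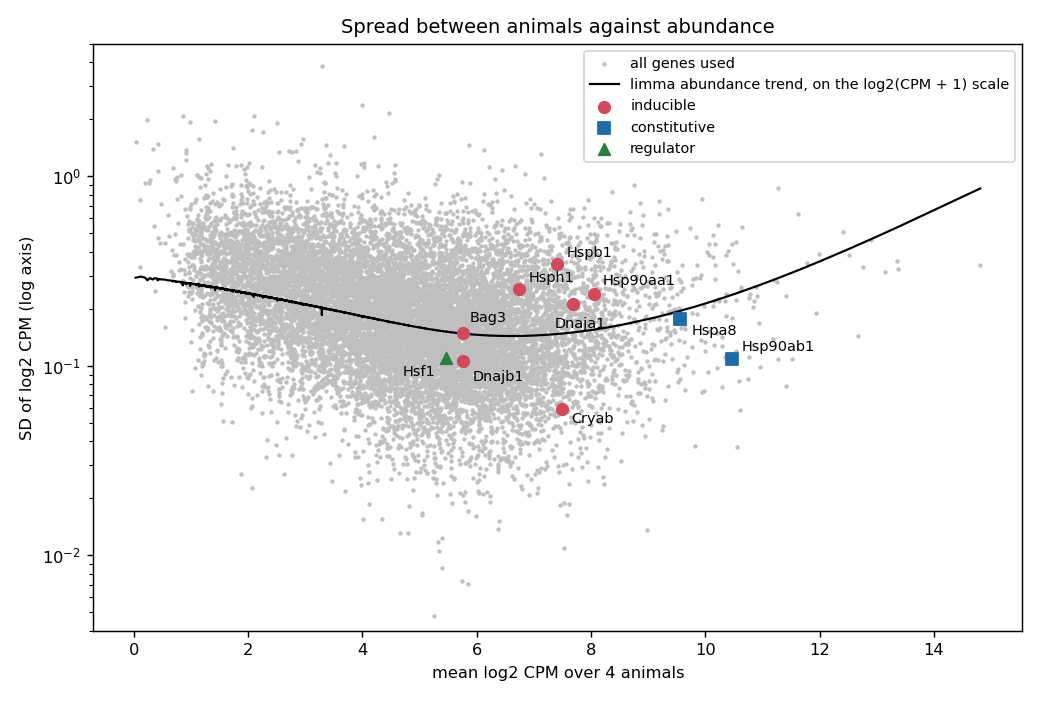
SD of log2 CPM over the 4 animals (vertical log axis) against mean log2 CPM (horizontal axis) for all 13261 genes (grey), with the limma trend on the log2(CPM + 1) scale (line), the inducible members (circles), the constitutive members (squares) and Hsf1 (triangle). Hspb1, at an SD of 0.34, and Hsph1, at 0.26, lie above the trend, and Cryab, at 0.06, lies below it.

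Other chaperone and stress genes, 95 of 105 listed with values, were examined for the same pattern. With limma, 0 of the 95 were called at an adjusted p under 0.05 (0.0% of all genes) and 6 passed at an unadjusted p under 0.05 (5.47% of all genes). The fixed-trend test called 8 of them (7.63% of all genes): Hspa1b, Hspa12a, Fkbp5 and the immediate early genes Fos, Dusp1, Zfp36, Klf4 and Nr4a1. Its calls depended on single animals: it called 5 related genes without replicate 1, 4 without replicate 2, and 5 each without replicate 3 or replicate 4. Of the 8 genes, Fkbp5 was called in each of these 4 fits. Hspa1b and Hspa12a were called in 3 of them and not without replicate 2, and Fos and Dusp1 in 3 and not without replicate 1. Klf4 and Zfp36 were called only without replicate 1, and Nr4a1 in 0 of the 4. The 8 genes did not share an animal: Hspa1b, Fkbp5 and Klf4 were highest in replicate 2, Fos, Dusp1, Zfp36 and Nr4a1 in replicate 3, and Hspa12a in replicate 4.

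Within the HSP70 and HSP110 family, 8 of 10 listed genes had values. Hspa1b, one of the stress-inducible HSP70 genes and the classical HSF1 target, and Hspa12a, a distant relative of the family, had the highest SDs of the list, each 0.46 log2, with opposite directions in replicate 2. Hspa1b had 40.2, 80.6, 48.5 and 41.7 CPM in replicates 1 to 4, so that replicate 2 stood 1.00 log2 above replicate 1 and 0.73 above the next animal. This gene was past the fixed-trend threshold (adjusted p = 0.000194) and not past that of limma (unadjusted p = 0.0316, adjusted p = 0.912). Without replicate 2, the fixed-trend test gave Hspa1b an adjusted p of 0.957. Hspa12a had 194, 101, 133 and 197 CPM, lowest in replicate 2, where it lay at -0.76 log2 from the mean of the other animals. It too was past the fixed-trend threshold (adjusted p = 0.00418, and 0.26 without replicate 2) and not past that of limma (unadjusted p = 0.0287, adjusted p = 0.912). Hspa1b and its neighbour Hspa1a, which was not analysed here, are nearly identical, so reads of either may be counted under it. In replicate 2 Hspa1b exceeded the mean of the other animals by 0.90 log2, beside 0.46 for Hsp90aa1, the largest such excess among the members. Hspa14, a ribosome-associated HSP70, had the lowest SD of the list (0.09), at 31.3 to 36.2 CPM. Of the 8 genes, 2 were highest in replicate 2, a share near the 21.3% of all genes.

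Of 13 J-domain genes, 1 was highest in replicate 2 and 6 were lowest there (21.3% and 31.5% of all genes), whereas Dnaja1 and Dnajb1 were both highest there. The list is not limited to the cytosol: Dnajb9, Dnajb12 and Dnajb14 encode proteins of the endoplasmic reticulum. Dnajb9 and Dnajb14 were among the 6 genes lowest in replicate 2. Dnaja2, a relative of Dnaja1, had the lowest SD (0.05), at 124, 114, 121 and 120 CPM, and Dnajb14 the highest (0.27), at 16.5, 11.6, 17.7 and 16.5 CPM. Of 4 other genes with an Hspb symbol, which alone does not place a gene in the small heat shock family, the most variable was Hspb11 (SD 0.32). It had few reads, 42 to 79 per sample, at 3.1 to 5.18 CPM. The least variable was Hspb2 (SD 0.12), the gene next to Cryab in mammals.

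Of the related lists, the co-chaperones of HSP90 and HSP70 had the largest share of genes highest in replicate 2. Of 19 genes with values, 10 were highest in replicate 2 and 11 lowest in replicate 4, against 21.3% and 13.9% of all genes, although the shifts were small: the median deviation in replicate 2 was 0.06 log2, beside 0.27 for the inducible members. Bag6 was the steadiest, at 215 to 226 CPM (SD 0.03). Fkbp5, an HSP90 co-chaperone gene that glucocorticoids induce, was the most variable (SD 0.78), with 77.8, 205, 96.9 and 57.1 CPM. It was called by the fixed-trend test (adjusted p = 2.01e-17, and 0.0286 without replicate 2) and not by limma (unadjusted p = 0.00436, adjusted p = 0.912). Its order of animals, replicate 2 above 3, 1 and 4, was also that of Hsp90ab1.

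The chaperonin TRiC, which folds actin and tubulin, had SDs of 0.03 (Cct7) to 0.11 (Cct6a) over 8 genes. The mitochondrial chaperones had a pattern of their own: 6 of 7 were highest in replicate 1 and 5 of 7 lowest in replicate 3 (27.7% and 19.6% of all genes). Hspd1, the mitochondrial HSP60, had 308, 290, 203 and 233 CPM, and Trap1, the mitochondrial HSP90, varied least (SD 0.09). The summed proximal tubule markers had 5814, 4287, 2888 and 4661 CPM, likewise highest in replicate 1 and lowest in replicate 3; their part in this was not tested. Of the HSF genes and partners, Hsf2 had an SD of 0.04 and Hsf4 one of 0.49, at 5.16 to 11.8 CPM.

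The other stress lists were not led by replicate 2. Of the 13 chaperone genes of the endoplasmic reticulum, 0 were highest there and 8 were lowest there (21.3% and 31.5% of all genes), with a median deviation of -0.09 log2; Hyou1, the most variable (SD 0.25), had 335, 229, 265 and 318 CPM, and Pdia3, the least (SD 0.07), had 603 to 670 CPM. The summed list had 6268, 5376, 5508 and 6213 CPM in replicates 1 to 4, the same order of animals as the summed podocyte markers given above, and Hyou1 had that order too. The part of podocyte content in this was not tested. Of the 20 immediate early genes, 4 were highest in replicate 2, 11 were highest in replicate 3 and 10 lowest in replicate 1 (29.6% and 35.0% of all genes). Markers of other cells ran the same way by count. Of 8 glomerular endothelial markers 6 were highest in replicate 3 and 6 lowest in replicate 1. Of 7 leukocyte markers 4 were highest in replicate 3 and 6 lowest in replicate 1. The summed leukocyte level, however, was highest in replicate 2, at 1033, 1320, 1294 and 1210 CPM in replicates 1 to 4. The part of endothelial and leukocyte content in the immediate early values was not tested. Fos, a transcription factor gene of this list, had 13.6, 22.6, 39.8 and 31.9 CPM (SD 0.68), whereas Jun hardly differed, at 234 to 249 CPM. The 4 genes highest in replicate 2 were Klf4, at 153, 240, 177 and 141 CPM, Fosb, at 7.3, 14.1, 10.2 and 8.46 CPM, Jund and Fosl2. The list was thus split between animals.

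**Figure D4:**
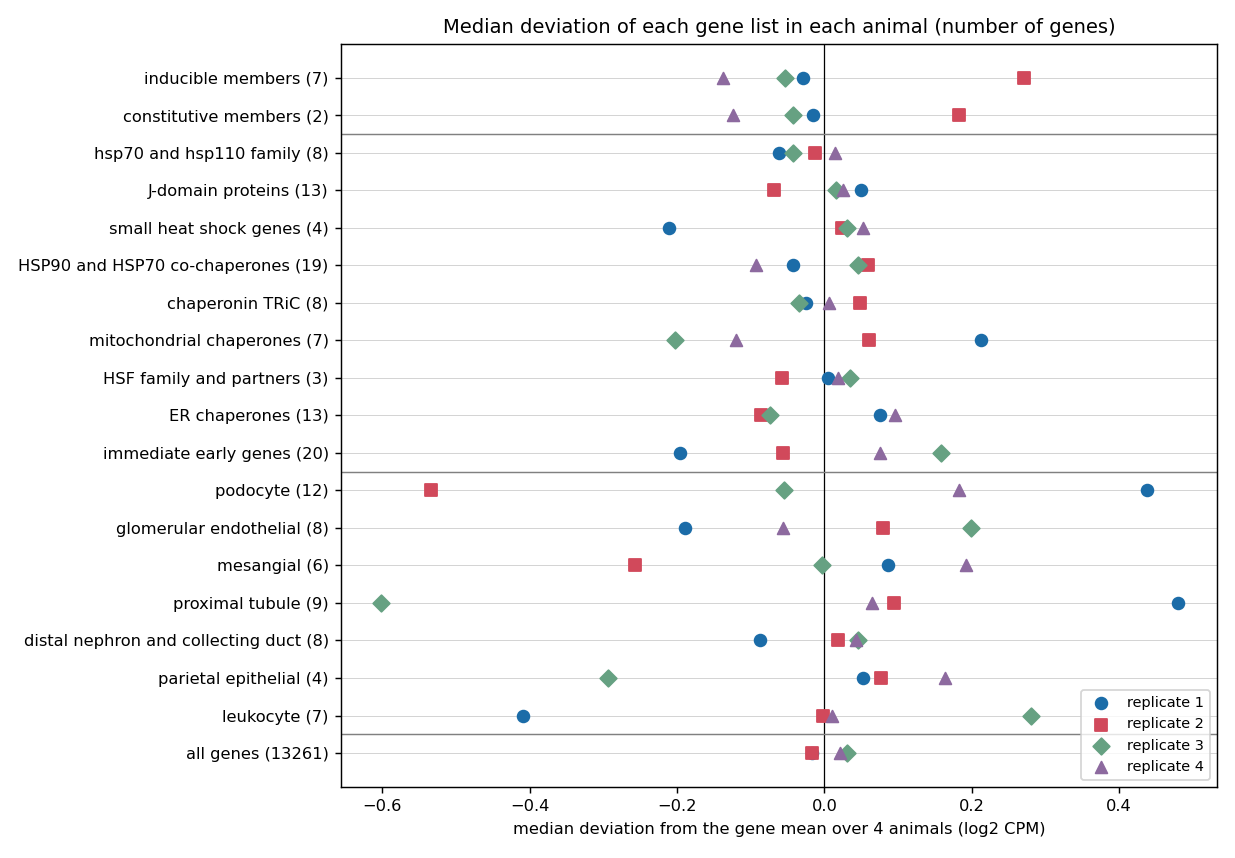
Median over the genes of each list of the deviation from the gene's own mean (horizontal axis, log2 CPM), for replicates 1 to 4 (symbols), with the number of genes in brackets; lines separate the members, the related gene lists, cell type markers and all genes. Replicate 2 lies at 0.27 for the inducible and 0.18 for the constitutive members, but at -0.09 for the chaperones of the endoplasmic reticulum and -0.53 for podocyte markers.

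Genes whose pattern was most like that of the inducible members were sought among the 6750 genes that varied at least as much, by the SD over 4 animals of the log2 ratio to the members' median deviations, re-centred to a mean of 0 over the 4 animals (-0.04, 0.26, -0.07 and -0.15 in replicates 1 to 4). The closest 5 were Twnk, the mitochondrial DNA helicase gene (SD of the ratio 0.01), Ier5l (0.02), Dtnb, encoding β-dystrobrevin (0.03), Reep6 (0.04) and Hdac6, a cytosolic deacetylase gene (0.04). With 4 animals many genes match any profile closely. Related genes with an SD below that of the profile, 0.18, were not ranked. Among those that were ranked, Dnajc2 came first, at position 443, and it was highest in replicate 3. The measure counts the size of deviations as well as their direction. Hspa1b, whose rise in replicate 2 was larger than that of the profile, stood at position 2194. Its deviations were -0.33, 0.67, -0.06 and -0.28 in replicates 1 to 4.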

How the data were processed

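Glomerular polyadenylated RNA of 4 ADR-treated rats was analysed from the log2 values the authors deposited, 1 per gene and sample. HISAT2, featureCounts, Subread and limma are named with Rnor_6.0 per the submitters' processing notes, without versions; use of strand and the annotation release are not given in the sources used here. The deposited values were recognised from the data as log2 CPM with 0.5 reads added to each count: reads were recovered as whole numbers for 100% of values in each sample, within 0.01 reads. Of 13265 rows, 4 with displaced values were left out, and 116 rows sharing a symbol were not used by symbol.

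The spread of each gene was compared with limma 3.58.1's abundance trend (intercept-only fit of log2(CPM + 1), F test of residual variance, adjusted over 13261 genes at 0.05), with Poisson sampling on recovered reads, and, as an alternative, with a fixed dispersion trend. The tests were tested on simulated data. Alternatives were other scalings, pseudocounts, a filter at a mean of 5 CPM, a robust prior and leaving out each replicate. Levels were to be ordered per length, but no transcript length was at hand, so no order was made. Named genes were all members, the genes with the highest and lowest SD of each list, the 5 nearest to the inducible profile, and genes past a threshold. Members and lists were chosen with earlier results of these data known. Replicates were numbered by accession, as names only.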

Additional observations from a re-analysis of the deposited data

Results flagged for a closer look

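The 59 values examined were the members, the summed CPM of each list, the difference between classes, and genes named from each list. The named genes had the highest and lowest SD of their list. In 3 of the values 1 animal was far from the rest. Its gap to the nearest neighbour took more of the whole range than Dixon's 95% critical value. Chance flags about 1 in 20 independent values, or 2.95 here. These values are not independent, as genes picked by their SD also enter the sums, so the rate is only a guide. Hsf1 was set apart by replicate 1, the lowest (ratio 0.838 on log2 CPM), at 39.4 CPM against 45.4 to 46.6 CPM in the others. The summed CPM of the J-domain genes was set apart by replicate 2, the lowest (ratio 0.839), at 827 CPM against 863 to 870. Dnajb14, a gene of that list, was also set apart by replicate 2 (ratio 0.841), at 11.6 CPM against 16.5 to 17.7.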

How the results depend on the processing

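Of 292 values recomputed under another setting, 33 levels under other scalings equal the reported ones by construction, and 120 belong to limma fits that called 0 of all genes in every setting, so these show nothing about stability. Of the other 139, 123 stayed within their criterion and 16 moved. Of the SDs of members, recomputed without each replicate after the data were seen, 7 moved by over 1.5 times: Hspb1 (0.20) and Hsf1 (0.02) without replicate 1, Hspa8 (0.10), Hsp90aa1 (0.09), Dnaja1 (0.12) and Bag3 (0.06) without replicate 2, and Cryab (0.03) without replicate 4. Where limma called 0 related genes, the fixed dispersion trend called 8 of 95. It called 4 to 5 when a replicate was left out, a check added after the data were seen. By design, limma lets genes of like abundance differ in variance (prior degrees of freedom 3.79), and the fixed trend does not. The range over animals of the difference between inducible and constitutive members, 0.08 log2, was 0.51 with class medians, 0.12 without Cryab and 0.12 without Hspb1 and Cryab, and ran from 0.0392 to 0.0803 when a replicate was left out. The low end came without replicate 1; fewer animals can only narrow a range. Members beyond counting error numbered 8 to 10, with Hsf1 lost under trimmed mean factors (adjusted p = 0.0591) and median-of-ratios factors (0.0699). Members highest in replicate 2, likewise an added check, numbered 8 to 9, and those at least 0.2 log2 higher there 6 to 8. The order of levels per length was not run. No paired analysis was possible because there is 1 group. Every member had at least 535 reads per sample. Depth bears most on Hsf1, Dnajb1 and Bag3, with 535 to 1010 reads per sample. Cryab was also near counting error, but with 2405 to 2929 reads and a small SD (0.06). The number of animals, 4, also limits the precision.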
